A study of Mus musculus with 13 samples.

Results

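The genes described here encode 9 basic helix-loop-helix (bHLH) transcription factors of the developing nervous system, pancreas and gut: Neurog1, Neurog2, Neurog3, Neurod1, Neurod2, Atoh1, Olig1, Olig2 and Ptf1a. They were chosen by name, and their positions were taken from the GENCODE vM1 annotation of the mouse genome build mm9, in which they are 9 of 22367 protein-coding genes on chromosomes 1 to 19, X and Y. The values are regions of ChIP-seq enrichment (peaks) called by the authors in mouse embryonic stem cells (mESCs). A start-site peak is a peak that overlaps the stretch within 1 kb of the start of the gene record by at least 1 bp.

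Peak lists of 5 samples were used, all labelled wild-type and from a male ES cell line named 129/1 XY. Endogenous AEBP2, a subunit of Polycomb repressive complex 2 (PRC2), was precipitated in 2 replicates, and H3K27me3, the histone mark made by PRC2, in 2 replicates. The antibody label of the latter gives H3K27 without its methylation state, which the study's results and figure captions name as trimethylation. A single sample without a replicate held FS2-AEBP2, an AEBP2 carrying an N-terminal Flag and StrepII tag that was precipitated by its tag with another protocol. The methods describe its expression from a plasmid in E14 mESCs for mass spectrometry and name no line for its ChIP-seq, while the sample's label gives the line of the other samples. The results therefore rest on cultured lines, and for FS2-AEBP2 the tag, the expression level, the protocol and possibly the line cannot be told apart. The H3K27me3 file names appear to carry the opposite replicate numbers to their sample records. The records were followed here, so which of these lists is replicate 1 is uncertain. Samples of SUZ12, of inputs and of the Aebp2 mutant were not analysed here.

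The AEBP2 lists held 2877 peaks in replicate 1 and 6779 in replicate 2, with median lengths of 1193 and 855 bp. FS2-AEBP2 gave 2884 peaks with a median of 893 bp. The H3K27me3 lists held 14112 and 9275 peaks with medians of 2073 and 2244 bp. No list gives read counts, so the depth behind a peak is unknown and a gene without a peak is a gene at which none was called. Each peak also carries a whole-number score whose scale is not given in the sources used here, and it was compared only as a rank within its own list.

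bHLH transcription factors bind the short DNA word CANNTG (the E-box), usually as pairs with the widely expressed E proteins. The Id proteins block this pairing, and the Hes and Hey repressors, targets of Notch signalling, hold the proneural members silent in neighbouring progenitors. The proneural factors commit progenitors to a neuronal fate, and related factors then drive differentiation. In mESCs such developmental regulators are known to be held silent by Polycomb complexes. PRC2 is typically found there at CpG islands, stretches of DNA rich in the CG dinucleotide that mark many promoters.

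The 250 bases directly upstream of the start site are given for 4 of the genes, read from mm9 on the coding strand, 5′ to 3′, with every CpG in capitals. Neurod1 is shown because its start site had the least AEBP2 of the 9, and Olig2 because it had the longest start-site AEBP2 peaks. Atoh1 is shown because its AEBP2 peak in replicate 1 began downstream of the start site, and Neurog3 because its start site lay outside the neighbouring CpG-island-like region. The Neurod1 stretch (chr2:79296909-79297158, minus strand) holds 14 CpGs, that of Atoh1 (chr6:64678890-64679139, plus strand) 18, that of Olig2 (chr16:91225545-91225794, plus strand) 22 and that of Neurog3 (chr10:61595588-61595837, plus strand) 18.
Neurod1: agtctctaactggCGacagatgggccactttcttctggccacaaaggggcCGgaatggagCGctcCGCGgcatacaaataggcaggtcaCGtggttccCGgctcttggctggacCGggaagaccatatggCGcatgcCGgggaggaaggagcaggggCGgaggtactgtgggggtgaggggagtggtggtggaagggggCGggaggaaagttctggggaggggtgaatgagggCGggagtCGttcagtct
Olig2: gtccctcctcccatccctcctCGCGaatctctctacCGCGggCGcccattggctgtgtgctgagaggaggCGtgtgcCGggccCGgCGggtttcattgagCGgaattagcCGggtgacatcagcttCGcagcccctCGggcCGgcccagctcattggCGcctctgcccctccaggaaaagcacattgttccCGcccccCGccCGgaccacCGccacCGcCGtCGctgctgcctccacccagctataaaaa
Atoh1: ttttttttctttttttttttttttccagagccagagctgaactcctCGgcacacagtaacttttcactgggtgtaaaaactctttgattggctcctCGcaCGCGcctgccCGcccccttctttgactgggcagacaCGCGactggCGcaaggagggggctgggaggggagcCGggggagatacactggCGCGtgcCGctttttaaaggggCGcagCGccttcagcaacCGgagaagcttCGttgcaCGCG
Neurog3: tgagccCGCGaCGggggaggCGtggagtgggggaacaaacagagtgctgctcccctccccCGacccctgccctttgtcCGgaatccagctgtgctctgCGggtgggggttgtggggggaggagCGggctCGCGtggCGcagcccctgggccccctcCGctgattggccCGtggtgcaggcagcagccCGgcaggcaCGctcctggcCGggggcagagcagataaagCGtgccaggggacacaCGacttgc
None of these stretches lacked CpGs, and the stretch of Neurod1 held the fewest of the 4.

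All 9 start sites had an H3K27me3 peak in both replicates, and 8 of 9 had a peak of all 3 AEBP2 lists. AEBP2 replicate 1 had a start-site peak at 9 of 9 genes, against 9.08% of all protein-coding genes. In AEBP2 replicate 2 the count was 8 of 9 (22.3% of all genes) and for FS2-AEBP2 8 of 9 (6.53%). The exception in both lists was Neurod1. H3K27me3 was called at 9 of 9 in replicate 1 (17.0% of all genes) and 9 of 9 in replicate 2 (17.7%). Peaks of both AEBP2 replicates stood at 8 of 9 genes (8.44% of all genes), peaks of both H3K27me3 replicates at 9 of 9 (15.0%), and peaks of all 5 lists at 8 of 9 (4.57%). The genes were chosen for a known role and not at random, with earlier results of these data known. These shares are therefore given side by side without a test.

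**Figure D1:**
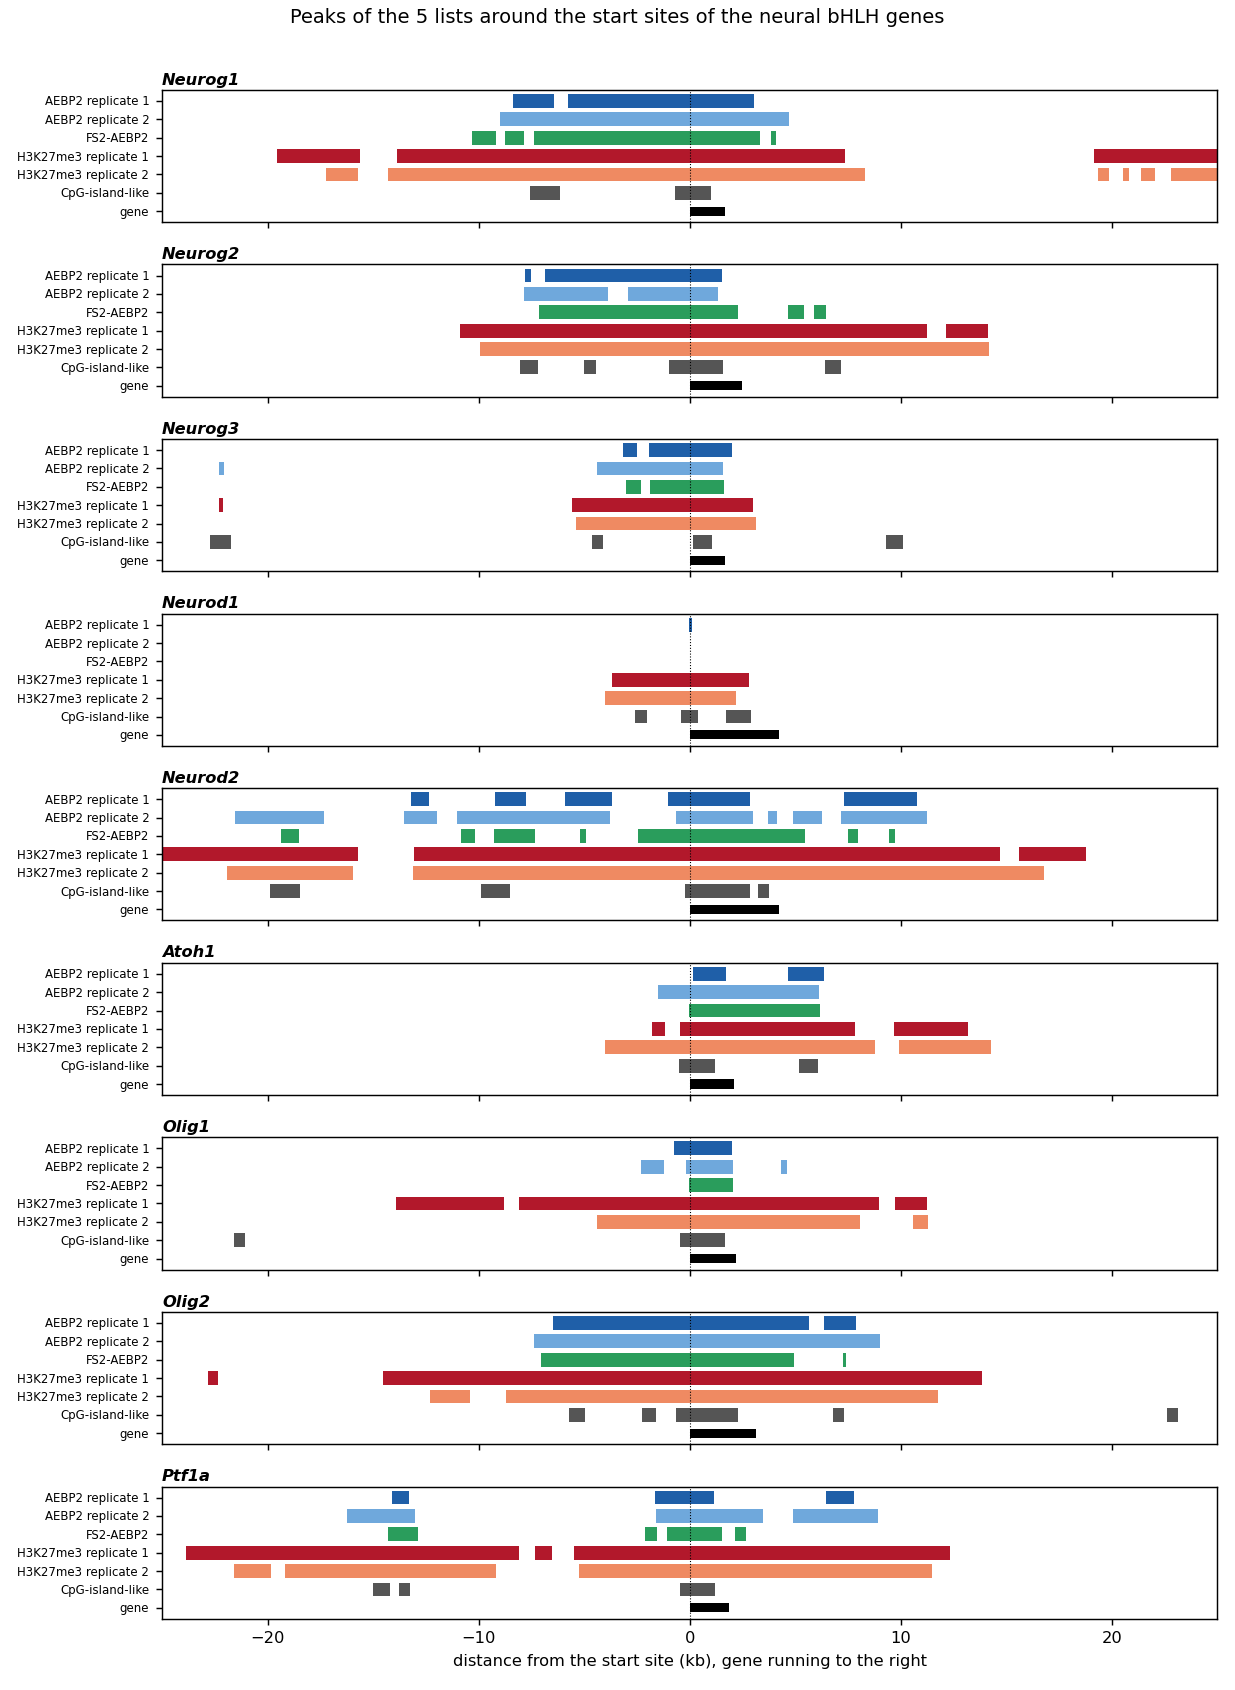
Peaks of the 5 lists and CpG-island-like regions around the 9 start sites, with 1 panel per gene. The x axis is the distance from the start site in kb, with transcription running to the right, each coloured bar is a peak of the list named on the left, grey bars are CpG-island-like regions, the black bar is the gene record, and Neurod1 is the panel with 1 short AEBP2 bar.

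AEBP2 was not called at every gene with the mark. Among the 3349 genes with H3K27me3 at the start site in both replicates, 1023 (30.5%) had peaks of all 3 AEBP2 lists, and these include 8 of the 9 bHLH genes. A further 973 (29.1%) had no AEBP2 peak of any list, and none of the 9 was among them. Neurod1 was 1 of 47 genes (1.4%) with AEBP2 replicate 1 only.

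The neurogenins are proneural factors: Neurog1 and Neurog2 act in sensory ganglia, spinal cord and cortex, and Neurog3 starts the endocrine lineage of the pancreas. Neurog1 (ENSMUSG00000048904, chromosome 13, 56351866 to 56353524, minus strand) is a gene of 1 exon. Its start-site AEBP2 peak measured 8822 bp in replicate 1, 13690 bp in replicate 2 and 10696 bp for FS2-AEBP2. Each of these contained the whole gene, and most of each lay upstream, with 5783, 8970 and 7386 bp before the start site. Its H3K27me3 peaks measured 21189 and 22600 bp and reached further on both sides.

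Neurog2 (ENSMUSG00000027967, chromosome 3, 127336054 to 127338549, plus strand) had AEBP2 peaks of 8402 bp in replicate 1 and 4282 bp in replicate 2. In replicate 2 a second peak of 4001 bp stood at −7867 to −3867 bp relative to the start site, a stretch that the start-site peak of replicate 1 reached in part. The FS2-AEBP2 peak measured 9433 bp and the H3K27me3 peaks 22145 and 24115 bp. All 3 AEBP2 peaks ended inside the gene, after the 270 bp intron, whereas both H3K27me3 peaks ran past its end.

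Neurog3 (ENSMUSG00000044312, chromosome 10, 61595838 to 61597511, plus strand) had shorter H3K27me3 and FS2-AEBP2 peaks than the other neurogenins. Its AEBP2 peaks measured 3907 and 5973 bp, its FS2-AEBP2 peak 3493 bp and its H3K27me3 peaks 8562 and 8497 bp. In AEBP2 replicate 2 its peak was longer than that of Neurog2, and in replicate 1 shorter. The H3K27me3 peaks were nearly equal in length and yet far apart in rank, with a score above 93.7% of the peaks of replicate 1 and above 16.4% of those of replicate 2.

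Neurod1 and Neurod2 act after the neurogenins in neuronal differentiation, and Neurod1 also in pancreatic islets. Neurod1 (ENSMUSG00000034701, chromosome 2, 79292678 to 79296908, minus strand) stood apart from the other 8 genes. Its only AEBP2 peak, in replicate 1, measured 176 bp (chromosome 2, 79296787 to 79296962), of which 54 bp lay upstream and 122 bp in the first exon. Only 1.77% of the start-site peaks of that list were shorter, and its score of 7 was the list median. The nearest AEBP2 peak of replicate 2 was 200614 bp downstream and the nearest FS2-AEBP2 peak 987787 bp upstream. H3K27me3 was nonetheless called over 6497 bp in replicate 1 and 6188 bp in replicate 2. These were the shortest H3K27me3 peaks of the 9 start sites in both replicates, and they ended inside the gene, covering 66.2% and 51.3% of it.

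Neurod2 (ENSMUSG00000038255, chromosome 11, 98186729 to 98190962, minus strand) had start-site AEBP2 peaks of 3898 and 3638 bp and an FS2-AEBP2 peak of 7903 bp. Its H3K27me3 peaks of 27787 and 29908 bp were the longest at any of the 9 start sites in replicate 2 and second to Olig2 in replicate 1. Inside and around this region AEBP2 was called in pieces. Within 25 kb of the start site there were 5 AEBP2 peaks in replicate 1, 7 in replicate 2 and 7 for FS2-AEBP2, the highest number at any of the 9 genes in each list.

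Atoh1 is required for cerebellar granule neurons, inner ear hair cells and secretory cells of the gut. At Atoh1 (ENSMUSG00000073043, chromosome 6, 64679140 to 64681227, plus strand) the AEBP2 replicates differed most in coverage. In replicate 1 a peak of 1566 bp began 158 bp downstream of the start site and lay wholly within the single exon, and another of 1705 bp began 4638 bp downstream. In replicate 2 a single peak of 7604 bp ran from 1488 bp upstream to 6115 bp downstream and spanned the first and most of the second. The FS2-AEBP2 peak of 6222 bp, from 33 bp upstream to 6188 bp downstream, had nearly the same downstream edge. H3K27me3 differed as well, over 8288 bp in replicate 1 and 12796 bp in replicate 2.

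Olig1 and Olig2 specify oligodendrocytes, and Olig2 also motor neurons. Their start sites lie 44219 bp apart on the plus strand of chromosome 16, at 91270014 to 91272184 for Olig1 (ENSMUSG00000046160) and 91225795 to 91228922 for Olig2 (ENSMUSG00000039830). Olig2 had AEBP2 peaks of 12138 and 16407 bp, an FS2-AEBP2 peak of 12021 bp and H3K27me3 peaks of 28394 and 20472 bp. Each of these contained the whole gene, and its 3 AEBP2 peaks were the longest at the 9 start sites in their lists. Olig1 had AEBP2 peaks of 2746 and 2212 bp and an FS2-AEBP2 peak of 2122 bp, close to the length of its gene record of 2171 bp. Its H3K27me3 peaks of 17084 and 12458 bp reached far past these. Between both start sites, 18.0% of the bases lay in AEBP2 peaks of replicate 1 and 23.2% in those of replicate 2, 11.7% in FS2-AEBP2 peaks and 61.3% and 36.5% in H3K27me3 peaks. The paired genes were thus not joined by a single peak in any list.

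Ptf1a specifies the exocrine pancreas and inhibitory neurons of the cerebellum and spinal cord. Ptf1a (ENSMUSG00000026735, chromosome 2, 19367290 to 19369128, plus strand) had AEBP2 peaks of 2795 and 5091 bp, an FS2-AEBP2 peak of 2611 bp and H3K27me3 peaks of 17794 and 16749 bp. A separate AEBP2 region upstream was called in all 3 lists. Relative to the start site it ran from −14092 to −13278 bp in replicate 1, from −16253 to −13017 bp in replicate 2 and from −14278 to −12890 bp for FS2-AEBP2, and H3K27me3 peaks of 15761 and 10001 bp covered the site. Downstream, peaks from 6446 to 7785 bp in replicate 1 and from 4914 to 8907 bp in replicate 2 had no FS2-AEBP2 counterpart.

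To set the genes side by side, the share of the stretch within 5 kb of the start site that lay in peaks was computed for each list. The median over the 9 genes was 45.7% in AEBP2 replicate 1, 54.2% in replicate 2 and 50.3% for FS2-AEBP2. Over all genes that had a start-site peak of the same list, the medians were 12.6%, 9.03% and 15.9%. For H3K27me3 the median of the 9 was 100% in both replicates, against 51.0% and 44.2% over all genes with a peak. At most of the 9 genes H3K27me3 filled this window, which therefore could not rank them.

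**Figure D2:**
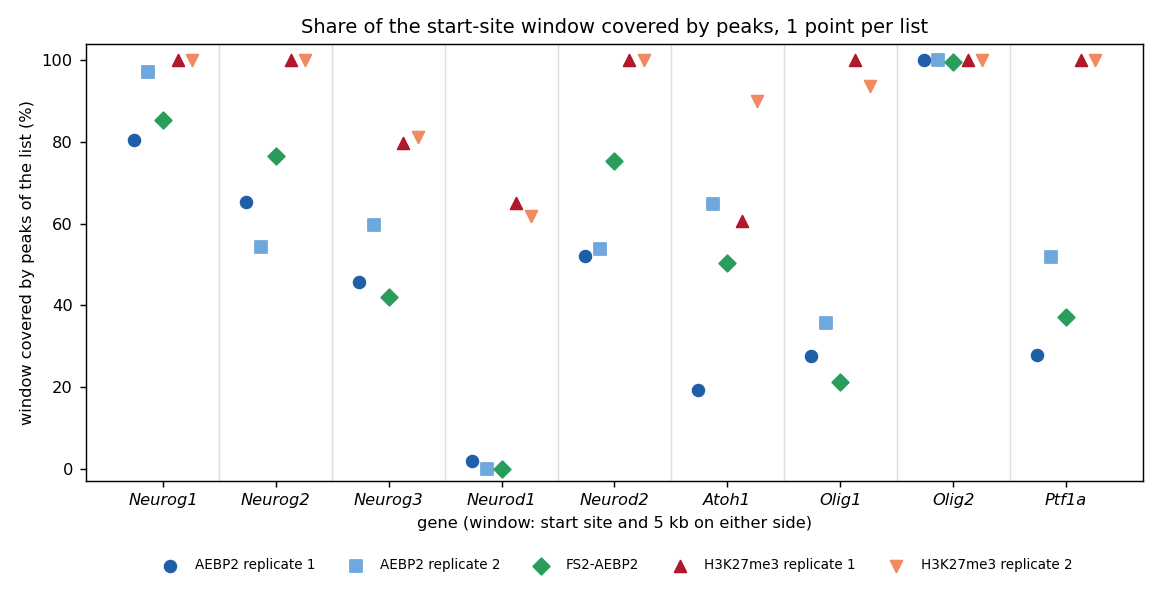
Share of the 5 kb on either side of each start site covered by peaks, in percent (y axis), for the 9 genes (x axis), with 1 point per list. The AEBP2 points run from 100 at Olig2 to 1.76 and 0 at Neurod1, while the H3K27me3 points stay between 60.6 and 100.

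By the mean of both AEBP2 replicates the order was Olig2 (100%), Neurog1 (88.8%), Neurog2 (59.8%), Neurod2 (53.0%), Neurog3 (52.7%), Atoh1 (42.1%), Ptf1a (39.9%), Olig1 (31.5%) and Neurod1 (0.88%). The replicate values were 100% and 100% at Olig2, 80.4% and 97.2% at Neurog1 and 65.4% and 54.2% at Neurog2, so these did not overlap with each other. Neurod2 followed just below Neurog2, at 52.1% and 53.8%. From there on Neurog3 (45.7% and 59.7%), Atoh1 (19.3% and 64.9%), Ptf1a (27.9% and 51.8%) and Olig1 (27.5% and 35.6%) each overlapped with the gene before it. Neighbours in this part of the order are therefore not separated by the replicates. Olig1 still lay below Neurod2 and Neurog3 in both replicates, while the values of Neurog2 overlapped with those of Neurog3 and Atoh1. Neurod1, at 1.76% and 0%, lay below all of them. FS2-AEBP2 covered 99.6% at Olig2, 85.4% at Neurog1, 76.5% at Neurog2, 75.3% at Neurod2, 50.3% at Atoh1, 41.9% at Neurog3, 37.1% at Ptf1a, 21.2% at Olig1 and 0% at Neurod1. Only Neurog3 and Atoh1 changed places between this order and that of the endogenous protein.

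The replicates differed by a median of 11.2 percentage points for AEBP2, with replicate 2 higher at 6 genes, replicate 1 at 2 and both equal at 1. The largest difference was 45.6 points at Atoh1. For H3K27me3 the median difference was 0 and the largest, 29.5 points, was again at Atoh1. AEBP2 replicate 2 also held more peaks over the genome, and whether list size bears on the difference was not tested.

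The start-site peaks were long for their lists. Over the genes with a peak, the median length was 3898 bp in AEBP2 replicate 1, 5532 bp in replicate 2 and 7062.5 bp for FS2-AEBP2, where the medians over the highest-scoring start-site peak of each gene were 1242, 869 and 1368.5 bp. For H3K27me3 the medians were 17794 and 16749 bp, against 4839 and 3926 bp. The lengths of the 9 also spread widely, from 176 to 12138 bp in AEBP2 replicate 1 and from 6188 to 29908 bp in H3K27me3 replicate 2.

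Score ranks were compared within each list. The median gene had a score above 77.2% of the peaks of AEBP2 replicate 1, 93.5% of those of replicate 2 and 92.4% of those of FS2-AEBP2. At Olig2 these ranks were 87.1%, 98.8% and 99.7%, with scores of 16, 57 and 106. At Neurog1 the AEBP2 score of replicate 1 was only above 47.2% of its list, whereas replicate 2 and FS2-AEBP2 gave 95.9% each. Olig1 went the other way for the tagged protein, with ranks of 54.7%, 87.4% and 26.7%. The scores in replicate 1 were low whole numbers with many ties, so that Neurog1, Neurog3 and Neurod1 shared the score 7 although their peaks measured 8822, 3907 and 176 bp.

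**Figure D3:**
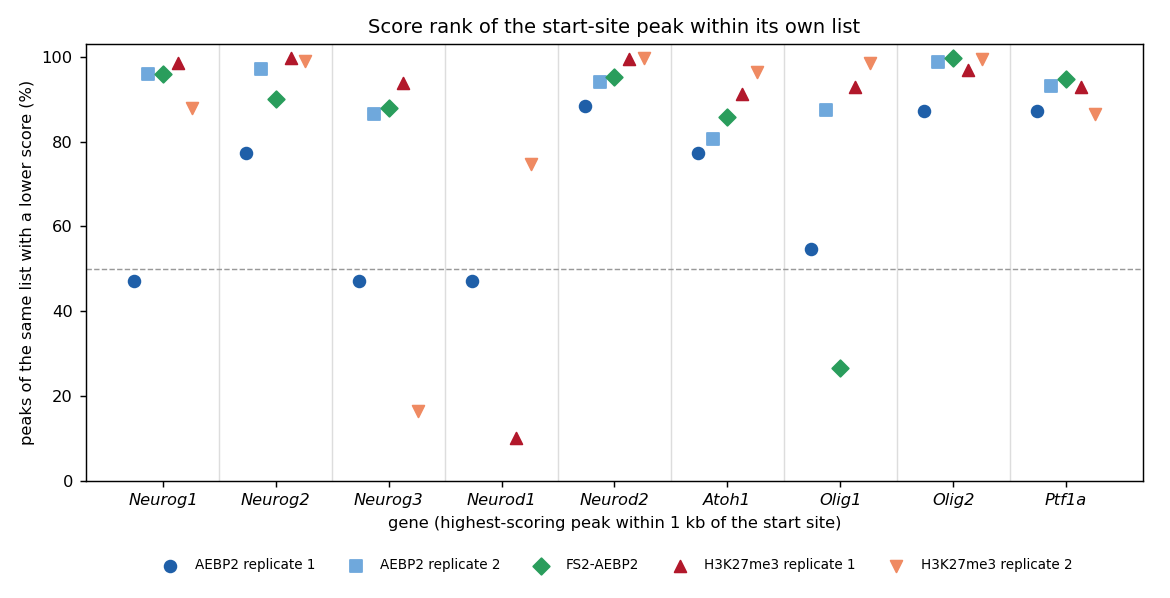
Rank of the start-site peak's score within its own list, as the percent of the list's peaks with a lower score (y axis), for the 9 genes (x axis), with 1 point per list and a dashed line at 50. Olig2 lies above 87 in all 5 lists, and the H3K27me3 points of Neurod1 (9.97 and 74.6) and Neurog3 (93.7 and 16.4) are far apart between replicates.

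The median rank for H3K27me3 was 93.7% in replicate 1 and 96.4% in replicate 2. Neurog2 ranked at 99.8% and 99.0% and Neurod2 at 99.5% and 99.8%. Neurod1 ranked at 9.97% in replicate 1 and 74.6% in replicate 2, so that the replicates disagreed on it, as on Neurog3, but in the opposite direction.

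Within 10 kb of the start sites, every base in an AEBP2 or FS2-AEBP2 peak also lay in an H3K27me3 peak of at least 1 replicate. This held at 9 of 9 genes for AEBP2 replicate 1 and at all 8 with a peak for replicate 2 and FS2-AEBP2. Of all genes with a start-site peak of the list, 62.9% showed the same for AEBP2 replicate 1, 38.6% for replicate 2 and 84.9% for FS2-AEBP2. When only genes with H3K27me3 in both replicates were counted, these shares were 92.4%, 82.7% and 96.0%. The full nesting at the 9 genes was therefore a common state among genes that carry the mark.

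In the other direction, AEBP2 filled only a part of the mark. Of the bases in H3K27me3 peaks of both replicates, AEBP2 covered a median of 43.7% over the 9 genes in replicate 1, 71.5% in replicate 2 and 54.2% for FS2-AEBP2, Neurod1 with its 0% values included. Over the 3335 genes with the mark in both replicates and such bases the medians were 0%, 25.2% and 0%, and over those that also had a start-site peak of the list they were 33.7%, 37.6% and 29.5%. Olig2 had 73.1%, 87.6% and 65.0%, and Neurod1 3.0%, 0% and 0%. At Olig1 the share was 28.6% in replicate 2 and 17.0% for FS2-AEBP2. Olig1 and Olig2, though neighbours, thus lay near opposite ends of the range.

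The bases within 10 kb of the start site that lay in peaks of all 3 AEBP2 lists were summed over all pieces. They came to 11580 bp at Olig2, 10312 bp at Neurog1, 7278 bp at Neurog2 and 5953 bp at Neurod2. The sum was 3977 bp at Neurog3, 3044 bp at Atoh1, 2263 bp at Ptf1a and 2048 bp at Olig1, and there was none at Neurod1. These bases were not always continuous, and at Neurod2 they were scattered from −9224 to 9701 bp relative to the start site. They included the start site at 7 genes, the exceptions being Neurod1 and Atoh1. Between the AEBP2 replicates, the share of their combined bases that both held was 83.4% at Olig2, 80.5% at Neurog2, 78.9% at Neurog1, 38.9% at Atoh1 and 0% at Neurod1, the lowest, while for H3K27me3 it was between 67.0% at Olig1 and 100% at Neurod2.

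All 9 genes had a CpG-island-like region near the start site (within 1 kb), against 12310 of 22367 protein-coding genes. Among genes with H3K27me3 in both replicates, 2880 of 3349 (86.0%) had one. The share was 96.8% where all 3 AEBP2 lists also had a peak and 63.9% where none had. Having such a region was therefore a common state among genes that carry the mark. Such a region was built by joining 500 bp windows in which GC made up no less than 55% and CpGs reached 0.65 or more of the number expected from base composition. It contained the start site at 8 genes, and at Neurog3 it lay downstream (61596001 to 61596880), so that the 18 CpGs printed above for Neurog3 lie outside it. Of promoters with such a region, 16.0% had a peak of AEBP2 replicate 1, 39.0% of replicate 2 and 11.4% of FS2-AEBP2, and of those without it 0.597%, 1.76% and 0.567%.

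The number of CpGs in the 2 kb centred on the start site was 165 at Neurog2, 143 at Ptf1a, 137 at Neurog1, 132 at Olig1, 113 at Atoh1, 105 at Olig2, 89 at Neurog3, 82 at Neurod2 and 62 at Neurod1. The median over all genes was 61. Among genes with H3K27me3 in both replicates the median was 117 where all 3 AEBP2 lists had a peak (quartiles 92 and 143) and 64 where none had (quartiles 45 and 87). For the 47 marked genes with AEBP2 replicate 1 only, to which Neurod1 belongs, it was 86 (quartiles 65 and 106.5). Neurod1 thus had the fewest CpGs of the 9, below the lower quartile of those 47 and near the median of the marked genes without AEBP2, although its CpG-island-like region of 830 bp (79296511 to 79297340) contained the start site. CpG number did not order the other 8. Olig2, with the most AEBP2 coverage, had fewer than Olig1, which had the least of those 8 by the mean of both replicates. In replicate 1 alone Atoh1 was lower than Olig1 (19.3% against 27.5%).

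**Figure D4:**
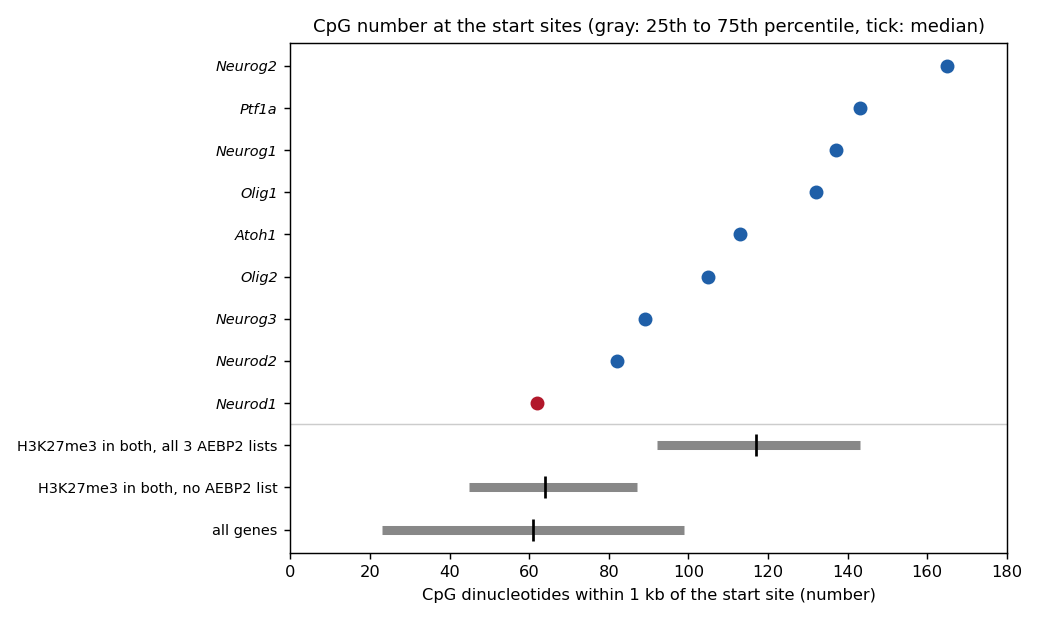
Number of CpGs in the 2 kb centred on the start site (x axis) for each of the 9 genes (points, Neurod1 in red), with the quartile range (grey bar) and median (tick) of all genes and of genes with H3K27me3 in both replicates. Neurod1, with 62, lies near the median of 64 of marked genes without AEBP2, and the other 8 run from 82 to 165.

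AEBP2 covered most of the CpG-island-like sequence within 10 kb at most of the genes, with medians of 75.4% in replicate 1, 90.2% in replicate 2 and 82.1% for FS2-AEBP2. At Ptf1a it covered 97.8%, 100% and 100%, at Olig2 100%, 100% and 89.9%, at Neurog3 41.4%, 53.7% and 41.4%, and at Neurod1 6.9%, 0% and 0%. AEBP2 was not limited to it, since such sequence made up a median of 38.9%, 30.4% and 35.1% of the bases in the peaks of these lists.

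Since these factors bind E-boxes, the same 250 bases upstream were searched for the letters CANNTG, which read the same on both strands. They occurred at 4 of 9 genes (44.4%), against 63.5% of all protein-coding genes, with 3 each at Neurod1 and Neurod2 and 1 each at Neurog1 and Neurog3. CAGATG or its reverse complement CATCTG, a form contained in CANNTG, occurred at Neurod1 and Neurod2 (22.2%) and at 12.8% of all genes. It is the word cagatg near the start of the Neurod1 stretch printed above. A match of letters is a description and no measure of binding.

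The lists of related genes placed the 9 beside their family and their pathway. These lists too were chosen with earlier results of these data known. Each count is to be read beside the share of all protein-coding genes. That share was 9.08% and 22.3% for AEBP2 in replicates 1 and 2, 6.53% for FS2-AEBP2 and 17.0% and 17.7% for H3K27me3. Of 10 other neural bHLH genes, 4 had a peak of AEBP2 replicate 1, 6 of replicate 2, 4 of FS2-AEBP2 and 6 of each H3K27me3 replicate. Those with a peak included Olig3, Bhlhe22 and Bhlhe23, and of the 10 kb window AEBP2 covered 9.3% and 25.9% at Olig3, 15.8% and 21.2% at Bhlhe22 and 40.6% and 26.7% at Bhlhe23. Of 14 bHLH genes of mesodermal tissues, 6 and 8 had AEBP2 in replicates 1 and 2, 8 FS2-AEBP2, and 8 H3K27me3 in each replicate. These included the muscle regulator Myod1 (18.7% and 17.9%), Tcf21 (5.06% and 26.1%) and the heart regulators Hand1 (60.6% and 64.3%) and Hand2 (67.7% and 89.5%). A start-site peak was thus also found at bHLH genes of other tissues.

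**Figure D5:**
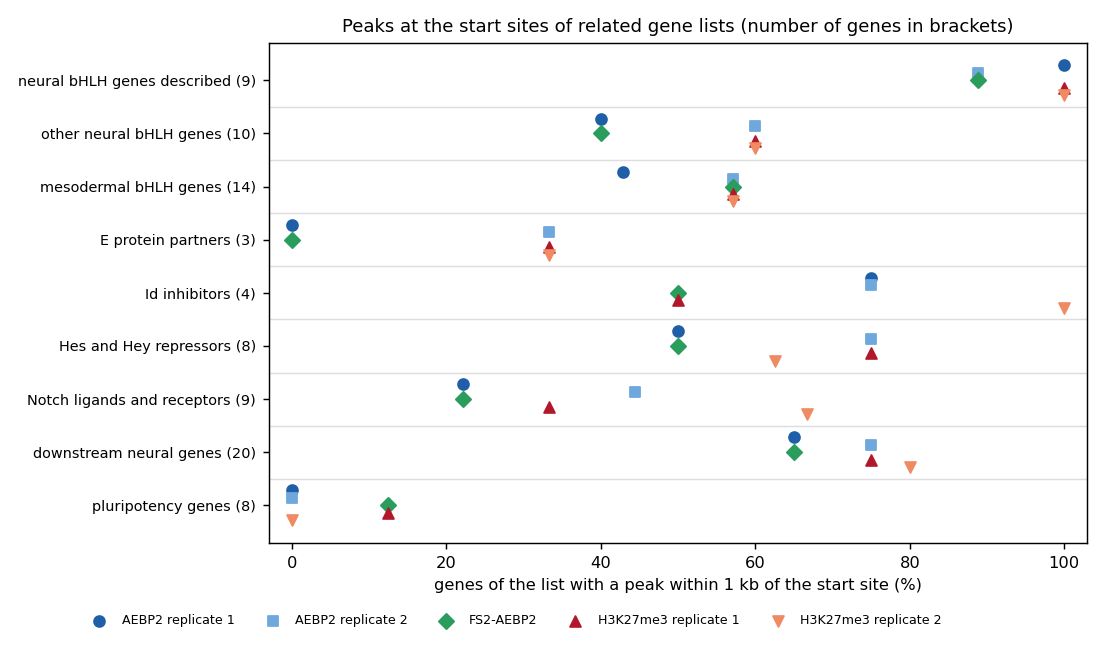
Percent of the genes of each gene list with a start-site peak (x axis), for the 9 genes and the related gene lists (y axis, number of genes in brackets), with 1 marker per peak list. The 9 genes lie at 88.9 or 100 for every peak list and the pluripotency genes at 12.5 or 0.

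The partners and inhibitors of bHLH factors were counted in the same way, to be read beside the same shares of all genes. A list of 3 genes is too small to be told apart from those shares. Of the 3 E protein genes, none had a peak of AEBP2 replicate 1 or FS2-AEBP2, and 1, Tcf12, had AEBP2 in replicate 2 (14.6%) and H3K27me3 in both replicates (24.6% and 44.8%). Tcf12 was named after its values were seen. Of the 4 Id genes, 3 had AEBP2 in each replicate, 2 FS2-AEBP2, and 2 and 4 H3K27me3, and Id2 had no AEBP2 peak. The AEBP2 coverage was low, with medians of 9.26% and 8.37% over the 4.

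Of the 8 Hes and Hey repressor genes, 4 had AEBP2 in replicate 1, 6 in replicate 2, 4 FS2-AEBP2, and 6 and 5 H3K27me3. Of 9 genes of Notch ligands and receptors, 2, the ligands Dll1 and Dll4, had AEBP2 in replicate 1, 4 in replicate 2, 2 FS2-AEBP2, and 3 and 6 H3K27me3. Over all genes the shares were 9.08% and 22.3% for AEBP2, 6.53% for FS2-AEBP2 and 17.0% and 17.7% for H3K27me3. With so few genes, small counts such as 2 of 9 cannot be told apart from these shares. AEBP2 covered 85.7% and 86.6% of the window at Dll4 and 31.5% and 65.5% at Dll1, values within the range of the 9 bHLH genes.

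Of 20 genes that act with or after these factors in neural cells, 13 had AEBP2 in replicate 1, 15 in replicate 2, 13 FS2-AEBP2, and 15 and 16 H3K27me3. The median share of the window within 5 kb that was covered was 45.6% in AEBP2 replicate 1, 58.5% in replicate 2 and 51.1% for FS2-AEBP2, close to the medians of the 9 bHLH genes. Those without AEBP2 in replicate 1 included the cortical transcription factor gene Tbr1, the neuronal cytoskeleton genes Dcx and Tubb3 and the RNA-binding protein gene Elavl3. Tbr1 had H3K27me3 in both replicates at its start site, and AEBP2 covered 20.1% and 30.0% of its wider window without reaching 1 kb from the start. Dcx had no peak of any list. Of 8 pluripotency genes found in the annotation, none had AEBP2 or H3K27me3 in replicate 2, none had AEBP2 in replicate 1, and 1, Klf4, had FS2-AEBP2 and H3K27me3 in replicate 1. Klf4 was named after its values were seen. Over all protein-coding genes, AEBP2 was called at 9.08% and 22.3%, FS2-AEBP2 at 6.53% and H3K27me3 at 17.0% and 17.7%. With 8 genes the pluripotency counts cannot be told apart from these shares. Only 2 of the 8 had a CpG-island-like region near the start site. A peak is no measure of expression, and the cell type could not be checked from these lists.

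Across all protein-coding genes, the 5 whose coverage of the 5 kb on either side was closest to the medians of the 9, by Euclidean distance over the 5 lists, were Zfp536 (3.15 percentage points), Rfx4 (5.26), Gm9885 (5.67), Ntrk3 (8.28) and Zmiz1 (11.8). At Zfp536 the values were 47.9% and 53.3% for AEBP2, 52.4% for FS2-AEBP2 and 100% for H3K27me3 in both replicates. Gm9885 and Ntrk3 had the same values of 41.4%, 51.9% and 48.5% in the AEBP2 and FS2-AEBP2 lists. The 9 genes themselves lay between 22.3 points (Ptf1a) and 100 points (Neurod1) from their own medians.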

How the data were processed

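Chromatin immunoprecipitation sequencing was done by the authors in mESCs, and 5 wild-type peak lists were used. The submitters' processing notes name Bowtie, SAMtools, Picard and MACS2 2.0.10.2 and the build mm9. Thresholds, controls and read depths are not given in the sources used here. The deposited lists give each peak's position, its blocks and a whole-number score, each list from 1 sample as its record states, and the score was ranked only within its list. Peaks off chromosomes 1 to 19, X and Y were left out (2 of 2879 in AEBP2 replicate 1 and 13 of 9288 in H3K27me3 replicate 2).

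Peaks were intersected with GENCODE vM1 in Python 3.11.15 with numpy 2.4.6, pandas 2.3.3 and pysam 0.24.0, with samtools 1.23.1 for the genome, after the overlap code was tested on simulated data. The start site is the 5′ end of the gene record. Where several peaks overlapped a start-site window, the one with the highest score was described. No statistical test was run, since each list gives 1 value per gene and the genes are no replicates of a condition. The genes and the related lists were chosen with earlier results of these data known. All 9 genes are named. For related lists at most 4 genes on the minority side for AEBP2 replicate 1 are named in list order (1 that the rule names is not reported here), and 5 genes by likeness of coverage, leaving out genes starting within 10 kb of the 9. Alternatives changed the window, the overlap, the score minimum, the start site and the joining of peaks, and 1 chosen after seeing the data kept only blocks longer than 1 bp.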

Additional observations from a re-analysis of the deposited data

How the results depend on the processing

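Of 89 values recomputed under alternatives, 77 stayed within a tolerance and 12 moved. The tolerance was 1.5 times for a count and 1 SD between the replicates' medians for a median, while any change of an FS2-AEBP2 median counted as moved because it has no replicate. None of the 64 recomputed counts of members moved, with blocks only (chosen after seeing the data) included. The tolerance is wide for counts that cannot exceed 9, since a fall from 8 to 6 stayed within it. That no count moved therefore says little. With at least 50% of the window covered, Atoh1 and Neurod1 lost their AEBP2 peak in replicate 1 (7 of 9 left), and 933 (4.17%), 1944 (8.69%) and 654 (2.92%) of all genes had AEBP2 in replicates 1 and 2 and FS2-AEBP2. With only peaks at or above the median score, Olig1 lost FS2-AEBP2 (7 of 9 left), Neurod1 H3K27me3 in replicate 1 and Neurog3 in replicate 2 (8 each). H3K27me3 in both replicates was then left at 7 genes and all 5 lists at 6. No share of all genes is given for these joint counts, so they cannot be set against a background. Of all genes, 1152 (5.15%), 3009 (13.5%) and 882 (3.94%) kept AEBP2 in replicates 1 and 2 and FS2-AEBP2, and 14.4% and 13.6% H3K27me3 in replicates 1 and 2. Without AEBP2 replicate 1, 8 genes had AEBP2 (22.3% of all genes), and without replicate 2, 9 had it (9.08%), Neurod1 included. Without H3K27me3 replicate 1 or 2, 9 genes had H3K27me3 (17.7% and 17.0% of all genes). With any 1 of these replicates left out, 8 genes had all remaining lists, for which no share of all genes is given.

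The median share covered fell to 22.9%, 41.4%, 31.1%, 90.9% and 80.5% (AEBP2 replicates 1 and 2, FS2-AEBP2, H3K27me3 replicates 1 and 2) with 10 kb on either side. It was 100% for each AEBP2 list with 1 kb, and 39% for AEBP2 replicate 1 with peaks at or above the median score. With peaks within 1 kb joined, the median length was 8404.5 bp in AEBP2 replicate 2 and 21189 bp in H3K27me3 replicate 1. Counting equal scores gave a median FS2-AEBP2 rank of 92.8%. The moves with the window follow from its size. No paired analysis was possible because the results are counts and shares with no test. Unknown depth limits every statement on a missing peak.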
